A study of Rattus norvegicus with 9 samples.

Results

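Of the 40808 annotated transcripts in the cortical RNA of these rats, 4 were present in every Sham library and at or near absence in every library taken after transient middle cerebral artery occlusion (tMCAO, the I/R group). They are the rat Ensembl transcripts ENSRNOT00000047289, ENSRNOT00000073840, ENSRNOT00000065184 and ENSRNOT00000085629. They were selected as the annotated transcripts with at least 50 counts in each of the 3 Sham libraries and at most 3 counts in each of the 3 I/R libraries. The whole table holds 44059 transcripts, the others being 3251 predicted lncRNA. The members were thus chosen by their raw Sham and I/R counts, so any value that sets Sham against I/R describes that choice and is no test of a fall. The libraries of the I/R + DEX group played no part in that choice. In them the 2 most abundant members again had no counts, ENSRNOT00000065184 was counted in 2 of 3 libraries at 21.4% of its mean Sham level on average, and ENSRNOT00000085629 was counted in all 3, with 1 library at its Sham level.

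A transcript is one RNA form of a gene, and a gene can give several forms by the use of other start sites, splice sites or ends. A form can therefore leave the count table while other forms of its gene are still made. Counts of single forms also depend on how reads that fit several forms are divided among them, which is not given in the sources used here. In the ischemic cortex, neurons in the territory of the closed artery die within hours while glial and blood-derived immune cells respond, so that transcripts made mainly by neurons commonly fall. In bulk tissue, fewer cells of a type and less RNA per cell cannot be told apart. None of the 4 identifiers (0 of 4, and 0 of all 40808) was matched to a gene in the reference table used here. The genes, protein products and cell types of the members are therefore not given, no sequence is printed, and markers of cortical cell types could not be checked.

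RNA was sequenced from the cerebral cortex at the infarct site of male Sprague-Dawley rats aged 7 to 8 weeks, with 3 rats in each group. The Sham rats received saline and had the neck vessels exposed without insertion of the wire. The I/R rats received saline and had 2 h of occlusion before the wire was withdrawn. The I/R + DEX rats received 50 μg/kg of dexmedetomidine (DEX), a sedative that activates α2 adrenergic receptors, intraperitoneally 30 min before the same occlusion, as the methods give it. The study's text is not uniform on whether DEX was also given after reperfusion. All rats were anesthetized with isoflurane for surgery and sacrificed at 24 h, and no gene was altered in any group. Library totals were 21691473 to 28600541 counts for the Sham rats, 32479042 to 35092422 for the I/R rats and 31234956 to 36039743 for the DEX-treated rats. The occluded libraries were thus the deeper ones, and 3 counts, taken below as the floor of detection in a library, correspond to 0.0832 to 0.138 CPM (counts per 1000000 counts of the library) before scaling. Levels are given below as CPM after TMM scaling, a correction for library composition, over all 9 libraries.

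ENSRNOT00000047289 was the most abundant member. It had 3118, 921 and 2878 counts in Sham replicates 1, 2 and 3, and no counts in any of the 3 I/R and 3 I/R + DEX libraries. These Sham counts were 111, 40.9 and 97.3 CPM, a mean of 83.1 ± 37.2 (SD, n = 3 rats), with replicate 2 well below the other 2. The Sham mean was at least 953-fold above I/R and at least 883-fold above I/R + DEX, taking 3 counts per library as the upper limit of a count of 0. These limits, and the intervals below, take account of counting error alone and not of the spread between rats. Amplified reads also do not each stand for 1 molecule.

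ENSRNOT00000073840 showed the same pattern with more even Sham values. Its counts were 1809, 1209 and 1923 in Sham replicates 1, 2 and 3, and 0 in all 6 occluded libraries. The Sham levels of 64.5, 53.7 and 65 CPM gave a mean of 61.1 ± 6.39 (SD, n = 3), at least 699.8-fold above I/R and at least 649-fold above I/R + DEX. In these 2 transcripts all occluded libraries thus lay below all Sham libraries, which the selection fixed for the I/R libraries. Among all transcripts tested, every I/R library lay below every Sham library for 27.8%, and every I/R + DEX library did so for 25.9%. DEX-treated and untreated rats were alike in having no counts of these 2 transcripts.

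ENSRNOT00000065184 had lower Sham levels and was counted in 2 of the 3 I/R + DEX libraries. It had 454, 122 and 279 counts in Sham replicates 1, 2 and 3 (16.2, 5.42 and 9.43 CPM), and none in any I/R library. In I/R + DEX it had 118, 0 and 89 counts in replicates 1, 2 and 3. The mean was 10.3 ± 5.44 CPM in Sham and 2.22 ± 1.94 CPM in I/R + DEX (SD, n = 3 each). The Sham mean was at least 119-fold above I/R, and the I/R + DEX mean at least 25.4-fold above I/R. The selection held the I/R values at the floor, so both ratios are partly built in and are no test. The 2 I/R + DEX libraries with counts, at 3.63 and 3.02 CPM, were near each other and both lay below the lowest Sham library. The remaining I/R + DEX library had no counts, like the I/R libraries.

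ENSRNOT00000085629 was the least abundant member. It had 120, 117 and 100 counts in Sham replicates 1, 2 and 3, and 0, 1 and 0 counts in I/R. In I/R + DEX it had 146, 8 and 10 counts. Its Sham levels were 4.28, 5.2 and 3.38 CPM, a mean of 4.28 ± 0.908 (SD, n = 3). Against I/R, whose libraries summed to 1 count, the Sham to I/R ratio was 435, with a 95% exact binomial counting interval from 77.5 to 17227 that is no test, since the selection set both terms. In I/R + DEX the 3 levels were 4.49, 0.235 and 0.339 CPM, a mean of 1.69 ± 2.43 (SD, n = 3). Replicate 1 was inside the range of the Sham libraries, whereas replicates 2 and 3 stood at 5.49% and 7.92% of the Sham mean. Without I/R + DEX replicate 1 the mean fell from 39.4% of Sham to 6.71%, so that most of the mean came from this library alone.

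**Figure D1:**
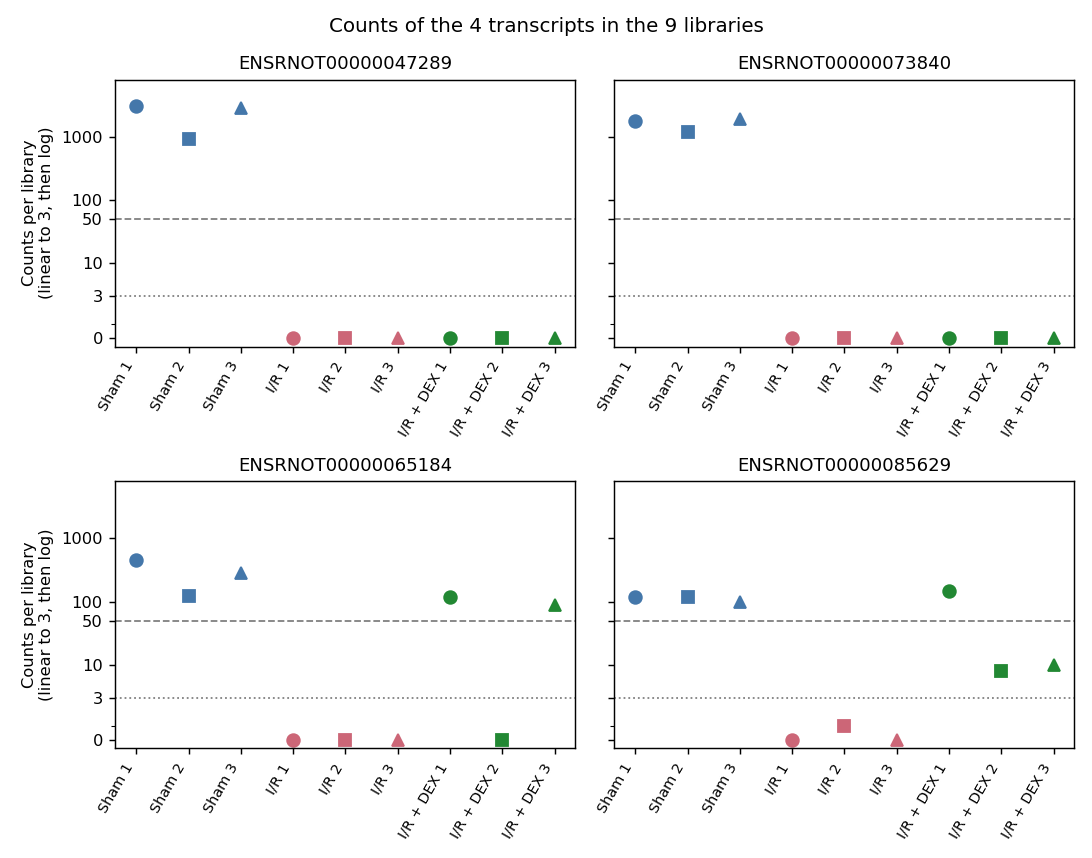
Counts of the 4 transcripts in each library, on an axis that is linear up to 3 counts and logarithmic above. Colours give the groups and symbols the replicate numbers, and the dashed and dotted lines mark the 50 and 3 counts of the selection. The upper 2 transcripts are at 0 in all 6 occluded libraries, while the lower 2 have counts in 2 and in 3 of the I/R + DEX libraries.

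In Sham cortex, the members were spread over much of the expressed range. Ranked by mean Sham CPM among all annotated transcripts, ENSRNOT00000047289 was number 2219 and ENSRNOT00000073840 number 3084, while ENSRNOT00000065184 was number 10577 and ENSRNOT00000085629 number 14029. Among the 15483 annotated transcripts with at least 50 counts in every Sham library, 85.7% had a lower level than the first and 10.6% a lower level than the last. These are levels per transcript and not per unit of length, so their order need not be the order of the numbers of molecules. The 4 together took 0.0201%, 0.0109% and 0.0181% of the counts of Sham replicates 1, 2 and 3.

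The members also differed in how evenly the Sham rats expressed them. The coefficient of variation over the 3 Sham rats was 44.8% for ENSRNOT00000047289 and 52.6% for ENSRNOT00000065184, each lowest in replicate 2. It was 10.5% for ENSRNOT00000073840 and 21.2% for ENSRNOT00000085629. The median over the 15483 transcripts was 9.78%. Thus 96.9% and 98.1% of these transcripts varied less than the first pair, and 53.3% and 83.5% less than the second pair. Between the highest and the lowest Sham library, levels differed 2.72-fold, 2.99-fold, 1.21-fold and 1.54-fold in the order in which the members were named here.

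The I/R levels of the members can be placed among those of other annotated transcripts, as a description of the values that chose them. By edgeR's quasi-likelihood test at the study's cutoff (unadjusted p below 0.05 and log2 fold change past 0.8), 16.6% of the 25777 transcripts tested were lower in I/R than in Sham. All 4 members were among them, which the selection fixed, so nothing is read from that count. Among the other 15479 annotated transcripts with at least 50 counts in every Sham library, mean I/R levels had a median of 99.7% of Sham, and 27 were under 10%. The lowest of them was at 2.51%, and none was under 1%. Of the other 4532 transcripts with at least 900 counts in every Sham library, a limit set after seeing the counts of the first 2 members, 3 were under 10% of Sham and the lowest was at 9.04%.

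**Figure D2:**
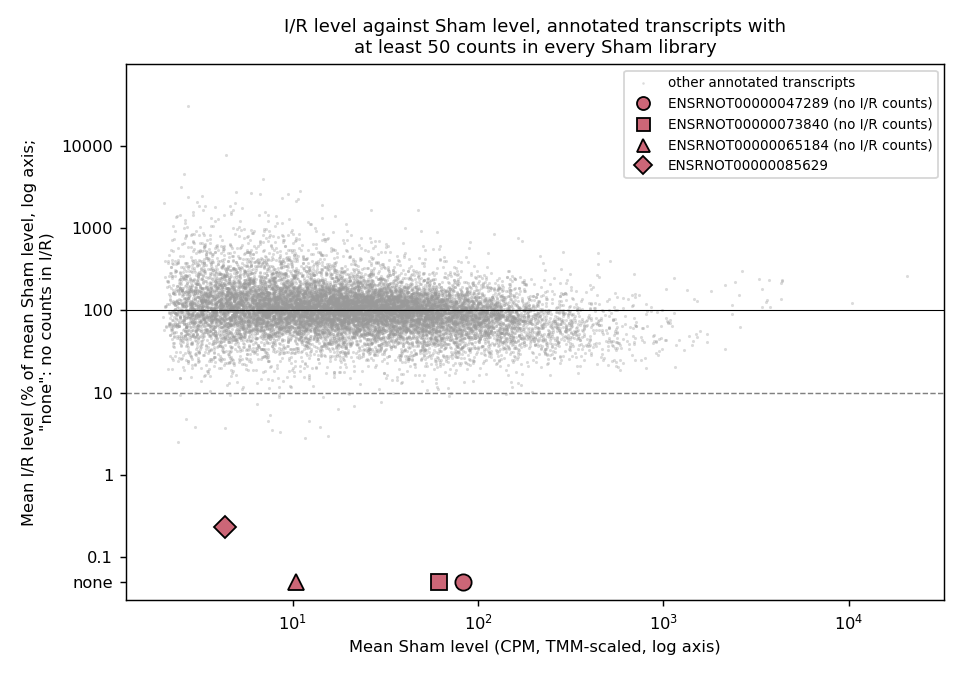
Mean I/R level as a percentage of the mean Sham level against the mean Sham level in CPM (TMM-scaled), both on log axes, for the 15483 annotated transcripts with at least 50 counts in every Sham library. Each grey dot is 1 transcript, and the red symbols are the 4 members, 3 of which had no I/R counts and are drawn at the row marked none. All other transcripts lie at or above 2.51%.

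Near the limits of the selection, 4 annotated transcripts were at the floor in all I/R libraries with a lowest Sham count between 31 and 40, and had no I/R counts at all, so that such transcripts continue below the limit of 50. A further 2 had at least 50 counts in every Sham library and a highest I/R count of 4 and 7. On the inner side, ENSRNOT00000085629 had a lowest Sham count of 100 and a highest I/R count of 1. Each of the first 4 had 50 counts or more in at least 1 I/R + DEX library, and 3 of them were above the floor in all 3. Of the further 2, 1 had 50 counts or more in at least 1 I/R + DEX library, and 0 were above the floor in all 3.

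The question of return was then put to the I/R + DEX libraries. Return is used here for counts above the floor in the I/R + DEX rats, which were not the I/R rats. Of the 4 members, 2 were above the floor in no I/R + DEX library, 1 in 2 libraries and 1 in all 3. None had 50 counts in all 3 libraries, and 2 had 50 counts or more in at least 1. Summed over the members, I/R + DEX replicates 1, 2 and 3 had 8.12, 0.235 and 3.36 CPM, against 105 to 196 CPM in the Sham libraries and at most 0.0302 CPM in the I/R libraries. The I/R + DEX mean was 2.46% of the Sham mean. The spread between treated rats (SD) was 2.501% of the Sham mean, as large as that value itself. Since most of the Sham sum comes from the 2 members that did not return, the median over the members was higher, at 10.7% of Sham.

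Against Sham, 2 of the 4 members were lower in I/R + DEX at the study's cutoff, where 11.9% of the 25283 transcripts tested were lower. They were ENSRNOT00000047289 (Benjamini-Hochberg adjusted p = 0.00596, edgeR) and ENSRNOT00000073840 (adjusted p = 0.00118, edgeR), and an adjusted p under 0.05 with a lower level was reached by 8.77% of all transcripts tested. For ENSRNOT00000065184 the log2 fold change was -2.23 (approximate standard error 1.296, adjusted p = 0.259, edgeR), although all 3 treated libraries lay below all Sham libraries. For ENSRNOT00000085629 it was -1.36 (approximate standard error 1.08, adjusted p = 0.402, edgeR), and the groups overlapped. These standard errors were derived from the fold change and the test statistic. The groups did not overlap for 3 of the 4 members, against 25.9% of all transcripts tested for which I/R + DEX lay below Sham. The Sham libraries took part in the selection, so these calls describe the members and are no independent evidence of a fall. For ENSRNOT00000065184 and ENSRNOT00000085629 a p above the threshold does not show that the level was restored, since the approximate standard errors are large. Without I/R + DEX replicate 1, ENSRNOT00000085629 was lower than Sham with an adjusted p of 0.00809 (edgeR), the lowest of the settings tried, which reached 0.597. Without I/R + DEX replicate 2, ENSRNOT00000065184 passed the study's cutoff (unadjusted p = 0.0236, adjusted p = 0.104, edgeR), and its adjusted p ran from 0.104 to 0.484 over the settings. With limma-voom both passed the study's cutoff with larger decreases, the log2 fold change being -4.29 for ENSRNOT00000065184 (unadjusted p = 0.0487, adjusted p = 0.128) and -2.51 for ENSRNOT00000085629 (unadjusted p = 0.0339, adjusted p = 0.102).

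Against I/R, the removal of low counts left 0 of the 4 members in the test, in which 1.16% of the 25860 transcripts were higher in I/R + DEX at the study's cutoff. Without that filter, the 2 members with any count in these 6 libraries, ENSRNOT00000065184 and ENSRNOT00000085629, were both higher in I/R + DEX at the study's cutoff, where 1.19% of the 36615 transcripts tested were higher. Their unadjusted p was 0.0253 and 0.00637, and the adjusted p was 0.902 for each (edgeR, Benjamini-Hochberg adjustment). In a fit of all 9 libraries all 4 members were kept and these 2 were called, where 1.6% of all transcripts were higher. DESeq2's Wald test without the filter, added after seeing the data, gave an adjusted p of 0.805 and 0.0201 in the same order. I/R values at the floor were a condition of the selection, so a higher value elsewhere is partly built in.

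The return can be set beside that of the 27 other annotated transcripts under 10% of Sham in I/R, a limit also chosen after seeing the data. These 27 were picked by low I/R levels in the same libraries, so higher levels in I/R + DEX are partly built in. Unlike the members they kept I/R counts, at 2.51% to 9.89% of Sham, and they were not matched to the members in Sham level. In I/R + DEX replicates 1, 2 and 3 their median levels were 36.9%, 13.6% and 11.1% of the Sham mean, and replicate 1 was the highest of the 3 libraries for 19 of the 27. ENSRNOT00000085629 was likewise highest in replicate 1, at 105% of Sham, and ENSRNOT00000065184 at 35.1%, against 0% and 29.2% in replicates 2 and 3. Of the 27, 21 were above the floor in all 3 I/R + DEX libraries, 5 in 2 and 1 in a single library, and none was at the floor in all 3. Neither ENSRNOT00000047289 nor ENSRNOT00000073840 had a count there.

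**Figure D3:**
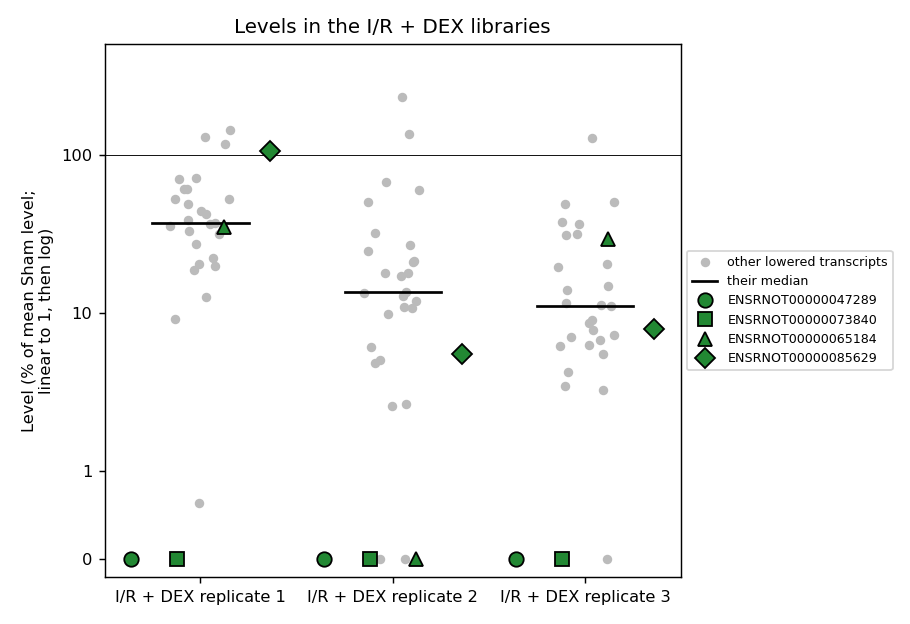
Level in each I/R + DEX library as a percentage of the mean Sham level, on an axis that is linear up to 1% and logarithmic above. Grey dots are the 27 other annotated transcripts under 10% of Sham in I/R, black bars their medians, and green symbols the 4 members. The circles and squares stay at 0 in every library, the diamond reaches 105% in replicate 1 alone, and the triangle is at 35.1%, 0% and 29.2%.

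Loss from a single library was more frequent than loss from a whole group. Of the 15483 annotated transcripts, 51 were at the floor in 1 I/R library, 10 in 2 and 4, the members, in all 3 (0.0258%). For the I/R + DEX libraries these numbers were 66, 7 and 4 (also 0.0258%), and the last 4 include the 2 members without counts. Over all 6 occluded libraries, 15371 were at the floor in none and 74 in 1, while 2, both members, were at the floor in all 6 and none in 5. Of the 4534 with at least 900 counts in every Sham library, 8 were at the floor in any occluded library, 2 of them in all 6.

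Similar gaps occurred within groups. With at least 50 counts in 2 libraries of a group, the count was at the floor in the remaining one for 139 annotated transcripts among the Sham rats, 127 among the I/R rats and 125 among the DEX-treated rats. Those with at least 50 counts in all 3 libraries numbered 15483, 16936 and 16358 in the same order. The gaps were thus 0.89%, 0.744% and 0.758% of both sets together. At 900 counts, the gaps numbered 9, 8 and 5, beside 4534, 5893 and 5294 transcripts that reached it in all 3 libraries. ENSRNOT00000065184 in I/R + DEX, with 118, 0 and 89 counts, is such a case.

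Loss was less frequent than gain among annotated transcripts. With at least 50 counts in every I/R library, 68 of 16936 were at the floor in every Sham library (0.402%). In the opposite direction there were the 4 members of 15483 (0.0258%). With all libraries thinned to the smallest total, there were 53 of 15675 and 4 of 15074. Between I/R + DEX and Sham, 45 were gained (0.275%) and 4 lost (0.0258%), or 33 and 3 after the same thinning. Between I/R + DEX and I/R there was 1 in each direction, without thinning. Those with 50 counts or more throughout the 6 occluded libraries and at most 3 in every Sham library numbered 34, against the 2 members with the opposite pattern. Among the predicted lncRNA, 8 of the 2014 with at least 50 counts in every Sham library met the same rule (0.397%). This share was larger than the 0.0258% of annotated transcripts. Gaps of a single library inside a group, counted as above, were also more frequent among the predicted lncRNA. They made up 4.19% for the Sham rats, 4.76% for the I/R rats and 4.71% for the DEX-treated rats. The annotated transcripts had 0.89%, 0.744% and 0.758% by the same count. The cause of the larger share of loss was not tested. The reverse of the rule was met by 8 of 1901 predicted lncRNA (0.421%). The 8 predicted lncRNA that met the rule had mean Sham levels from 3.47 to 62.3 CPM (median 17.7). In I/R + DEX they stood at 0% to 121% of Sham with a median of 12.1%. Of the 8, 2 had no counts in any occluded library, as with the members, and 1 was above the floor in all 3 I/R + DEX libraries. These comparisons are counts without a test, and share their libraries.

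**Figure D4:**
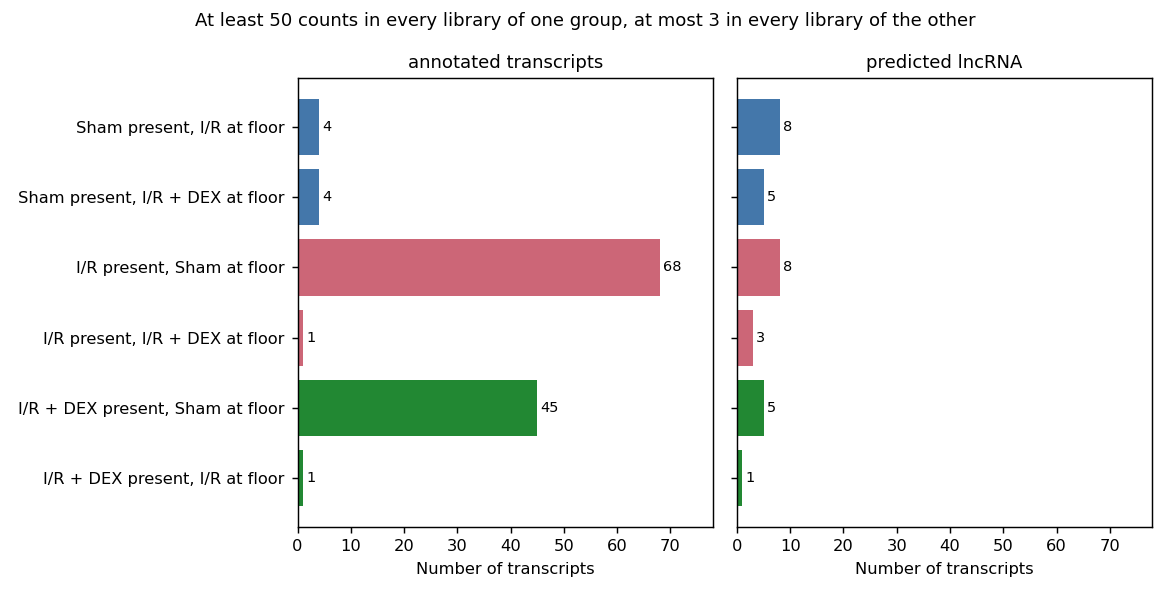
Number of transcripts that had 50 counts or more throughout one group (colour) and at most 3 in every library of another, for annotated transcripts (left) and predicted lncRNA (right). The 4 members form the top bar on the left, beside 68 annotated transcripts in the reverse direction, while the predicted lncRNA have 8 in both directions.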

How the data were processed

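Raw counts per transcript and library, deposited by the authors as whole numbers without normalization, were used for all 9 libraries, grouped by their titles. In the study's methods, reads from a total RNA kit were trimmed and aligned to a genome of the mouse, and CLC Genomics Workbench gave the counts. The submitters' processing notes instead list rn6, STAR 2.5.3a and StringTie 1.3.1, and identifiers are rat, so the route is unsettled. The rat Ensembl identifiers were looked up in a gene table of assembly GRCr8.

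Here, R 4.3.3 and edgeR 4.0.16 were used. TMM factors over all 9 libraries gave CPM. Each pair of groups was compared in its 6 libraries by edgeR's quasi-likelihood test after filterByExpr (10 counts, total of at least 15), without other terms, on all transcripts. Tests were tried on simulated data. Alternatives were RLE factors, total counts alone, no filter, DESeq2 1.42.0, limma-voom (limma 3.58.1), all libraries in one fit, a replicate block, a fold cutoff of 1, other selection limits, thinning and leaving out each library. Library totals set the CPM that the floor of 3 counts stands for. The members, lists and limits were chosen with earlier results of these data known. The named transcripts are the 2 most abundant members absent from I/R + DEX and the 2 highest in it, which are all 4. The replicates are separate rats, and no 2 libraries of the same group agreed within sampling noise.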

Additional observations from a re-analysis of the deposited data

How the results depend on the processing

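The selection fixed the calls of I/R against Sham, so their 4 of 4 under each setting, the replicate block included, says nothing about stability. The replicate numbers gave no sign of pairing the rats. The correlation of same-numbered libraries' deviations from their group means ran from -0.507 to 0.0829, and not every library correlated best with its own number. With 3 libraries in each group, this check cannot settle whether rats were paired. With the replicate number as a block, 2 members were lower in I/R + DEX than in Sham and 0 were tested against I/R, as without it. A Sham minimum of 30 counts gave 8 members, of which 6 were above the floor in at least 1 I/R + DEX library and 4 in all 3, with 6 and 1 at 30 counts or more in at least 1 and in all 3. An I/R maximum of 0 gave 3 members, 1 of them above the floor and at 50 counts in at least 1 I/R + DEX library and 0 in all 3, and a maximum of 10 gave 6 members with 4 above the floor in at least 1. A floor of 10 counts in I/R + DEX left 0 above it in all 3. With single libraries left out, the rule gave 4 to 11 members, 1 to 4 above the floor in every I/R + DEX library left, 2 to 9 in at least 1 and 2 to 5 in none, with 1 to 8 at 50 counts in at least 1 and 0 to 2 in all. The highest number of members, 11, came without I/R replicate 3, and it was 8 and 10 without Sham replicates 2 and 3. The summed level in I/R + DEX was 10.7% of Sham as a median over members, and 1.13% to 3.62% with single libraries left out. Against Sham, limma-voom called 4 members and leaving out single libraries 2 to 3. Against I/R, 2 were called without the filter with edgeR or DESeq2 and 2 in one fit of all 9 libraries, and 0 to 2 with single libraries left out (2 without I/R + DEX replicate 2 or I/R replicate 2, 1 without I/R replicate 1 or 3). The cause of these shifts was not tested. Counts of members and the summed level can shift but cannot reverse. A reversal was therefore looked for only in the log2 fold changes against Sham, and none changed sign for a member in any setting. For I/R against Sham the selection fixed the sign. In I/R + DEX, ENSRNOT00000047289 and ENSRNOT00000073840 had no counts in any library, so their sign against Sham was fixed too. Every I/R + DEX library of ENSRNOT00000065184 lay below every Sham library. A change of sign was thus a real possibility only for ENSRNOT00000085629, whose groups overlapped.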
